A study of Homo sapiens with 6 samples.

Results

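AU-rich element binding proteins attach to runs of A and U in the 3′ untranslated region (3′ UTR) of short-lived mRNAs, among them those of cytokines, growth factors and early response genes, and set how long these mRNAs last and how well they are translated. The 8 genes described here were chosen by name: ZFP36, ZFP36L1, ZFP36L2, KHSRP, TIA1, TIAL1, ELAVL1 and PABPC1. All 8 had a row in each deposited table, among 21533 genes in all, and all 8 were among the 12973 genes with enough reads to be tested. RNA was sequenced from LX-2, a line of immortalised human stellate cells of the liver, in 3 samples transfected with a control siRNA and 3 transfected with an siRNA against PERK. PERK is the endoplasmic reticulum stress kinase encoded by EIF2AK3. All 6 samples received palmitic acid, a saturated fatty acid, and were collected 24 h later, so each difference is one between siRNAs in lipid-treated cells. The series title places its question around PERK, p38δ MAPK and IL-1β in stellate cells and liver cancer. A single cell line was used. The labels do not say whether the 3 samples of a group were grown separately, so the p-values reflect sample-to-sample spread that could be technical.

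The proteins act in different directions on their targets. ZFP36 (tristetraprolin) and its paralogues ZFP36L1 and ZFP36L2 bind the element through paired zinc fingers and bring in the CCR4-NOT deadenylase, which shortens the poly(A) tail. KHSRP recruits the decay machinery through KH domains, and TIA1 and TIAL1 hold bound mRNAs out of translation and gather in stress granules. ELAVL1 (HuR) competes for similar sites and stabilises the mRNA, while PABPC1 coats the poly(A) tail that the deadenylases remove. The kinase MK2, a substrate of p38, phosphorylates ZFP36 and weakens its ability to start decay. None of these protein activities was measured here, only mRNA.

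The ZFP36 family prefers the nonamer TTATTTATT, written in DNA letters. It stood, on the sense strand of the longest annotated 3′ UTR, in 1216 of 12728 tested genes with such a UTR, or 9.55%. Sites are shown because 4 of the 8 genes carry the nonamer in their own 3′ UTR, as do many of the mRNAs these proteins are known to bind. Each line gives up to 30 bases, 5′ to 3′, from GENCODE release 29 transcripts (GRCh38), with every full nonamer in capitals. A match is a description of the letters and not a shown binding site.
ZFP36 (chr19:39409196-39409225, plus strand): tatgacgactTTATTTATTctaatatgatt
ZFP36L1 (chr14:68788076-68788105, minus strand): aactgttggaTTATTTATTttagaaattcc
ZFP36L2 (chr2:43223447-43223476, minus strand): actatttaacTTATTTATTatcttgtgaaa
ELAVL1 (chr19:7961827-7961856, minus strand): atttatgtatTTATTTATTgaagtgtgaaa
IL1B (chr2:112829994-112830023, minus strand): gcttccctatTTATTTATTTATTtgtttgt
CXCL8 (chr4:73742664-73742693, plus strand): atgtaaagtaTTATTTATTtgaatctacaa
VEGFA (chr6:43786286-43786315, plus strand): ttgttatcatTTATTTATTggtgctactgt
PTGS2 (chr1:186674316-186674345, minus strand): atgatcatatTTATTTATTtatatgaacca
BCL2 (chr18:63128352-63128381, minus strand): aaaaaaagatTTATTTATTtaagacagtcc
Each of the 4 protein genes has 1 nonamer, in 3′ UTRs of 713 bases (ZFP36), 2828 bases (ZFP36L1), 1917 bases (ZFP36L2) and 4904 bases (ELAVL1). The 3′ UTRs of KHSRP (764 bases), TIA1 (3275 bases), TIAL1 (3863 bases) and PABPC1 (480 bases) hold none. The window of IL1B holds 2 overlapping nonamers. IL1B, CXCL8, PTGS2 and BCL2 were chosen for display after their values were seen.

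The libraries held 17937141 to 19585872 exon reads, of which 94.92 to 95% were placed uniquely. The targeted EIF2AK3 stood at 12.9 to 13.9 CPM, a gene's reads scaled to a fixed library total with TMM factors, in the control samples and at 4.37 to 5.52 CPM with PERK siRNA (log2 fold change -1.42, SE 0.101), and 15.1% of its exon bases overlap antisense genes. Of 11 stellate and mesenchymal markers 9 were tested. DCN and LUM, with 0 to 3 reads per sample, were not, and the summed level of the 11 was 6260 to 6380 TPM in controls and 6940 to 6950 TPM with PERK siRNA. VIM and COL1A1 carried most of that sum, and the members did not move together: 5 rose, among them ACTA2 (log2 fold change 1.95), TAGLN (1.71) and COL1A2 (1.2), while COL3A1 (-0.894) and PDGFRB (-0.172) fell. Of 7 hepatocyte markers, ALB among them, 6 had no read. Of 7 macrophage and leukocyte markers, CD163, MARCO and CD3E had none, and PTPRC had 2 to 11 reads. The summed level was 132 to 138 TPM in controls and 120 to 123 TPM with PERK siRNA. CD68 made up most of it, at 107 to 112 TPM in controls and 104 to 107 TPM with PERK siRNA, and did not pass the test. CD14 (-0.477) and CSF1R (-3.14) fell. The 7 endothelial markers summed to 5.9 to 6.12 and 1.85 to 2.43 TPM. PECAM1 alone fell among them (-3.8), while VWF (-0.296) and KDR (0.443) did not pass the test and the other 4, with 0 to 12 reads per sample, were not tested. The 5 cholangiocyte and epithelial markers, with EPCAM at 0 to 2 reads and CDH1 at 0, summed to 131 to 138 and 85.6 to 94.8 TPM. SOX9, at 103 to 115 TPM in controls, and KRT7, at 22.8 to 26.5 TPM, made up most of this sum. Both fell (-0.539 and -0.82). The part of these marker differences in the results was not tested. In bulk RNA of this single line, fewer cells expressing a marker and less of its RNA per cell cannot be told apart.

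With PERK siRNA, 6 of the 8 genes rose, 1 fell and 1 did not pass the test (edgeR's quasi-likelihood test, p adjusted over all tested genes, threshold 0.05). ZFP36, PABPC1, KHSRP, ZFP36L2, TIA1 and ZFP36L1 rose, TIAL1 fell, and ELAVL1 was not called. Every difference was smaller than 1.5-fold. The siRNA moved most of the transcriptome: 69.5% of tested genes were called in either direction, 34.4% higher and 35.0% lower. The 7 of 8 called in either direction are thus near the background. By direction, 6 of 8 rose against 34.4% of tested genes, and 1 of 8 fell against 35.0%. Whether the 8 genes depart from the background in direction was not tested. The median log2 fold change was 0.23 over the 8 genes and 0.0038 over all tested genes, and the median absolute value was 0.23 against 0.276. The 3 samples of one group lay wholly above those of the other for 7 of the 8, against 71.8% of all tested genes (35.8% with PERK siRNA higher and 36.0% with it lower).

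**Figure D1:**
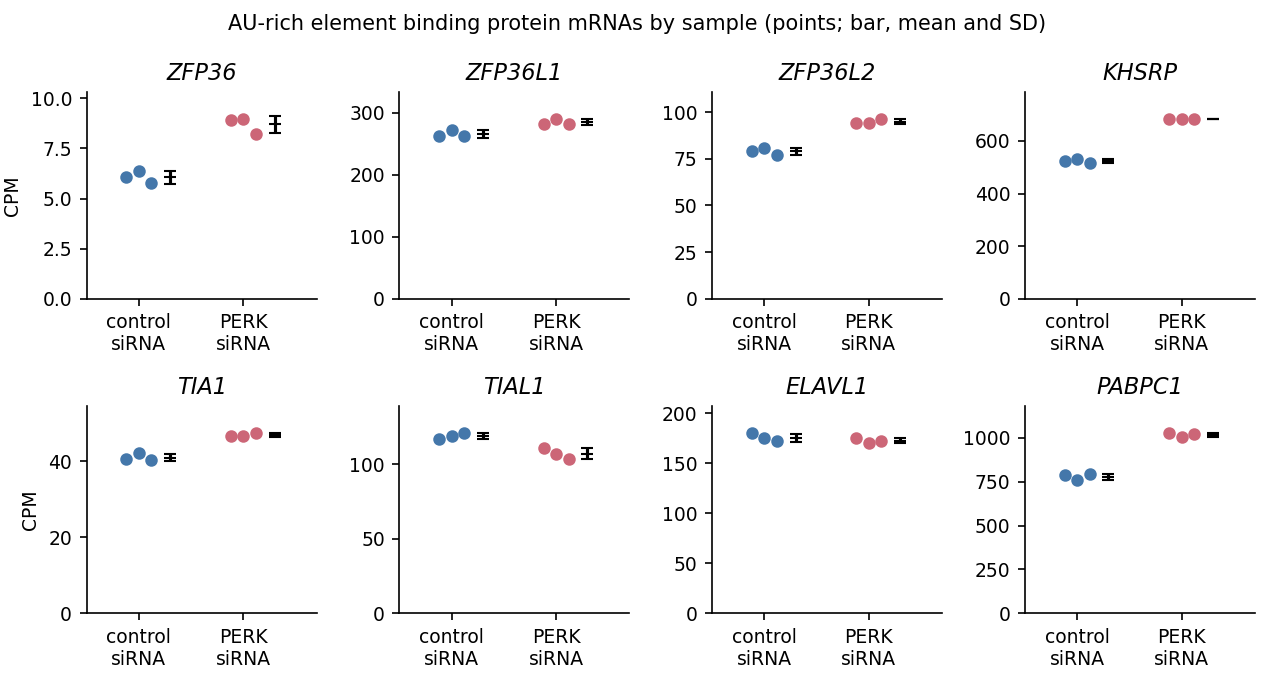
Normalised read count (CPM, vertical axis from 0) of each gene in the 3 control siRNA samples (blue) and 3 PERK siRNA samples (red), with the mean and SD beside the points. The groups are separate for every gene but ELAVL1, whose 6 samples lie between 170 and 180 CPM.

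Levels per exon length, in TPM, ordered the 8 genes identically in both groups. In control samples PABPC1 was at 482 ± 6.96, KHSRP at 410 ± 8.68, ZFP36L1 at 150 ± 4.92 and ELAVL1 at 97.5 ± 2.78 TPM (SD, n = 3 each). ZFP36L2 followed at 74.6 ± 2.52, TIAL1 at 64.7 ± 0.83, TIA1 at 28.2 ± 0.88 and ZFP36 at 10.9 ± 0.66 TPM (SD, n = 3 each). No neighbours in this order overlapped in their samples. PABPC1 lay above 97.4% of tested genes in control TPM and KHSRP above 97.0%, whereas ZFP36 lay above 32.4%. The closest neighbours with PERK siRNA were ELAVL1, at 94.7 to 96.3 TPM, and ZFP36L2, at 88.3 to 90.4 TPM.

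ZFP36 (ENSG00000128016; chromosome 19, 39406813 to 39409412, plus strand, GRCh38) is the founding member of its family and an early response gene whose own mRNA is short-lived. It was the scarcest of the 8, with 119, 119 and 111 reads in the control samples and 159, 175 and 158 with PERK siRNA. This corresponded to 6.05, 6.38 and 5.75 CPM in controls and to 8.91, 8.96 and 8.22 CPM with PERK siRNA. Every PERK siRNA sample lay above every control sample. The difference was 1.43-fold, the largest of the 8 (log2 fold change 0.52, SE 0.103, 95% interval 0.31 to 0.73, adjusted p = 5.7e-05). Counting error alone at this depth is 9.27% of the control value, which makes ZFP36 also the least precisely measured of the 8. Of all tested genes, 74.0% had a smaller absolute log2 fold change.

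ZFP36L2 (ENSG00000152518; chromosome 2, 43222402 to 43226609, minus strand) stood at 78.9, 81.0 and 77.0 CPM in controls and at 94.4, 94.1 and 96.3 CPM with PERK siRNA. The groups were separate, by 1.2-fold (log2 fold change 0.27, SE 0.034, adjusted p = 5.2e-08). ZFP36L1 (ENSG00000185650; chromosome 14, 68787660 to 68796253, minus strand), the most abundant of the 3 paralogues, stood at 262, 273 and 262 CPM in controls and at 282, 290 and 282 CPM with PERK siRNA. Its groups also did not overlap, but the difference was only 1.07-fold (0.10, SE 0.026, adjusted p = 0.0013), smaller than that of most tested genes, since 20.5% had a smaller absolute value. All 3 genes thus rose, by unequal amounts.

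The make-up of the ZFP36 family differed between the groups. Summed over the 3 paralogues, the level was 233, 244 and 229 TPM in controls and 261, 269 and 263 TPM with PERK siRNA. Of this sum ZFP36L1 made up 63.6 ± 0.31% in controls and 60.3 ± 0.45% with PERK siRNA (SD, n = 3 each). The share of ZFP36L2 was 31.7 ± 0.23% and 33.8 ± 0.61%, and that of ZFP36 itself 4.65 ± 0.13% and 5.91 ± 0.27% (SD, n = 3 each). ZFP36L1 therefore supplied most of the family's mRNA in every sample. None of these shares overlapped between groups, and each had an exact two-sided permutation p of 0.1, unadjusted and adjusted over the 4 shares computed, which is the smallest that 3 samples against 3 can give.

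KHSRP (ENSG00000088247; chromosome 19, 6413348 to 6424794, minus strand), a KH-domain protein that also takes part in microRNA maturation, stood at 525, 531 and 517 CPM in controls. With PERK siRNA it was at 682, 683 and 682 CPM. The PERK siRNA samples all lay above the controls, by 1.3-fold (log2 fold change 0.38, SE 0.023, adjusted p = 6.6e-15). Counting error alone is 0.997% of the control value, so the closeness of the PERK siRNA samples is no measure of precision. KHSRP, ZFP36 and PABPC1 were the 3 of the 8 that also passed a test against a 1.2-fold change, with adjusted p of 8.4e-06, 0.0071 and 4.8e-06. Of all tested genes, 36.1% passed that test in either direction.

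TIA1 and TIAL1, related proteins with 3 RNA recognition motifs each, moved in opposite directions. TIA1 (ENSG00000116001; chromosome 2, 70209444 to 70248660, minus strand) stood at 40.4, 42.0 and 40.3 CPM in controls and at 46.6, 46.5 and 47.3 CPM with PERK siRNA. It rose by 1.14-fold, without overlap (log2 fold change 0.19, SE 0.043, adjusted p = 0.00023). TIAL1 (ENSG00000151923; chromosome 10, 119571802 to 119597029, minus strand) stood at 117, 119 and 121 CPM in controls and at 111, 107 and 104 CPM with PERK siRNA. It was the only one of the 8 that fell, to 90.5% of the control mean (-0.14, SE 0.031, adjusted p = 0.00017). The share of TIA1 in the summed TPM of the pair was 30.3 ± 0.62% in controls and 35.5 ± 0.85% with PERK siRNA (SD, n = 3 each), again without overlap and with an exact permutation p of 0.1. The sum itself differed little, at 92.8 ± 1.41 and 90.3 ± 1.33 TPM (SD, n = 3 each), with samples that overlapped. Of the exon bases of TIA1, 3.2% overlap C2orf42 on the same strand.

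**Figure D2:**
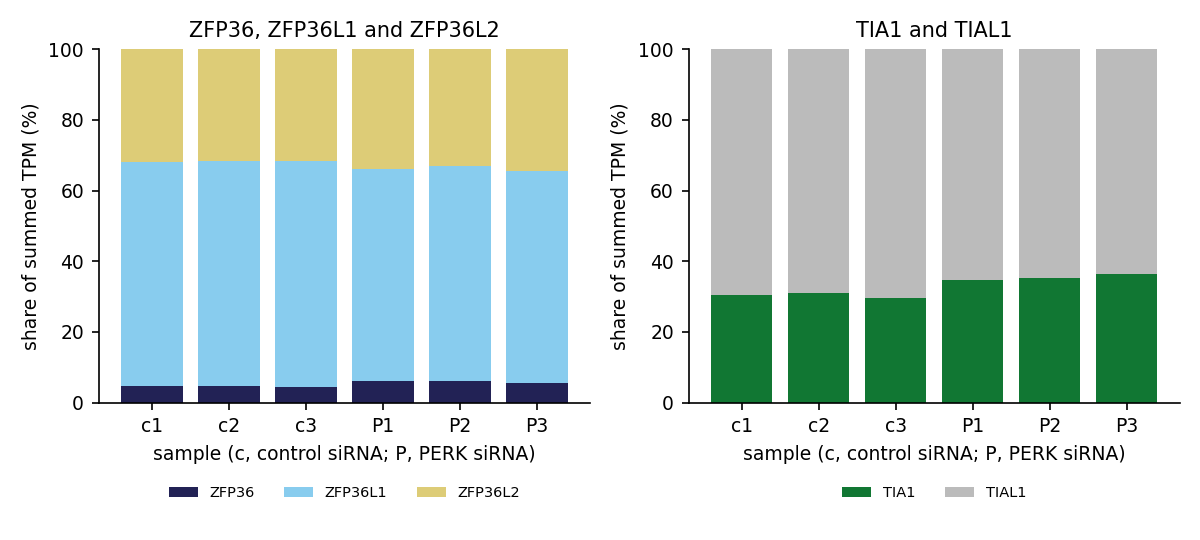
Share of each paralogue in the summed TPM of its family (vertical axis, %) in control siRNA samples (c1 to c3) and PERK siRNA samples (P1 to P3). ZFP36L1 fills 60.0 to 63.9% of its family in every sample, and the TIA1 share is 29.7 to 30.9% in controls and 34.7 to 36.4% with PERK siRNA.

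ELAVL1 (ENSG00000066044; chromosome 19, 7958579 to 8005659, minus strand), the stabilising member, was the one gene whose groups overlapped. It stood at 180, 175 and 172 CPM in controls and at 175, 170 and 172 CPM with PERK siRNA. The log2 fold change was -0.03 (SE 0.028, adjusted p = 0.39), with a 95% interval of -0.08 to 0.03. A change of the size seen in KHSRP or PABPC1 lies outside that interval. Of its exon bases, 7.6% overlap an antisense gene, and the sources used here do not give whether the authors counted by strand. The neuronal paralogues ELAVL2, ELAVL3 and ELAVL4 had too few reads to be tested.

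PABPC1 (ENSG00000070756; chromosome 8, 100685816 to 100722809, minus strand), the main cytoplasmic poly(A)-binding protein, was the most abundant of the 8. It stood at 786, 759 and 792 CPM in controls and at 1027, 1007 and 1022 CPM with PERK siRNA. All PERK siRNA samples lay above all controls, by 1.31-fold (log2 fold change 0.39, SE 0.023, adjusted p = 6.9e-15). PABPC1 has processed copies elsewhere in the genome, and 97.2% of its reads were placed uniquely. For the other 7 genes that share rounded to 100%.

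**Figure D3:**
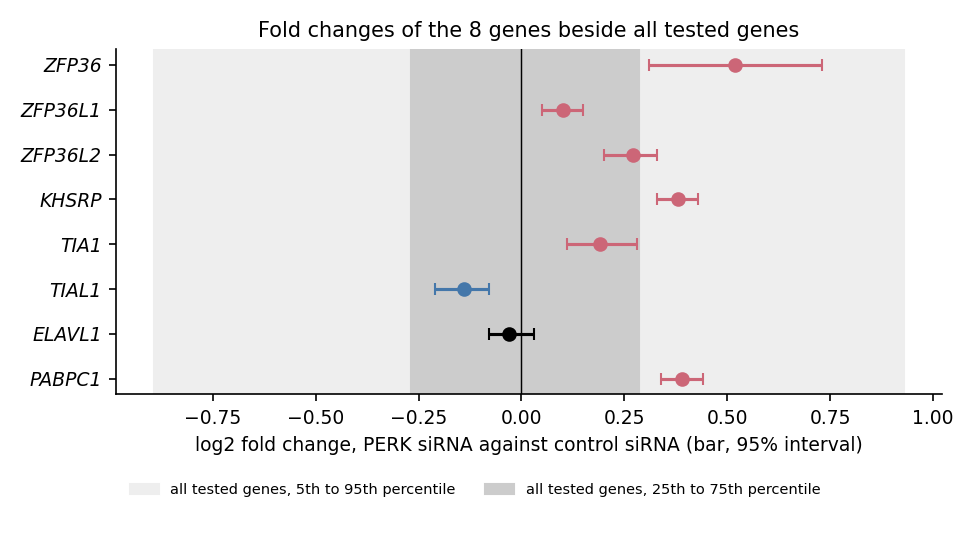
Log2 fold change of each gene, PERK siRNA against control siRNA (horizontal axis), with its 95% interval; red genes rose, the blue gene fell and the black gene did not pass the test. Grey bands give the middle of all tested genes, from -0.27 to 0.29 (25th to 75th percentile) and from -0.89 to 0.93 (5th to 95th); all 8 genes lie inside the wider band.

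Other AU-rich and 3′ UTR binding proteins moved both ways: of 21 tested, 6 rose and 11 fell, with a median of -0.10. Over all tested genes 34.4% rose and 35.0% fell. The 3 with the smallest adjusted p all fell. HNRNPD (AUF1), which binds AU-rich elements, fell to 308 ± 3.6 from a control level of 406 ± 10.4 CPM (SD, n = 3 each; -0.40 on the log2 scale, adjusted p = 1.8e-14). Its relative HNRNPDL changed alike (-0.44, adjusted p = 3.7e-14), and RBMS1, a single-strand RNA-binding protein, was at 56.7 ± 0.71 and 27.3 ± 1.06 CPM (SD, n = 3 each; -1.05, adjusted p = 3.3e-18). HNRNPD thus fell while the 3 ZFP36 paralogues rose.

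The decay machinery that these proteins recruit gave no common direction, and the shares of all tested genes that rose and fell, 34.4% and 35.0%, apply to each count here. Of 17 deadenylase subunits and adaptors, 4 rose and 8 fell (median -0.09). The deadenylases CNOT8 (-0.84, adjusted p = 2.7e-17) and CNOT7 (-0.33, adjusted p = 1.9e-12) fell, as did the adaptor BTG1 (-0.53, adjusted p = 4e-14). Only 2 of the 17 rose with DESeq2, without control sample 1 or without PERK siRNA sample 3. Of the BTG1 exon bases 17.1% overlap other genes. CNOT1, the scaffold that the ZFP36 family binds, fell by 0.07 on the log2 scale (adjusted p = 0.0088) and was chosen after its value was seen. Of 19 decapping and 5′ to 3′ decay genes, 5 rose and 6 fell (median -0.01). LSM4, of the ring that binds shortened tails, rose from 60.7 ± 0.019 to 98.0 ± 0.64 CPM (SD, n = 3 each; 0.69, adjusted p = 5.5e-17). Counting error alone is 2.93% of its control value, so the small SDs are no measure of precision. GIGYF1 (-0.53, adjusted p = 3.5e-11) and GIGYF2 (-0.33, adjusted p = 7.4e-11), translational repressors that bind the cap-binding protein 4EHP, fell. Of 17 exosome and SKI genes, 6 rose and 6 fell (median -0.0035), with SKIC3 (0.45, adjusted p = 7.8e-14) and the nuclease DIS3L (0.48, adjusted p = 1.4e-10) higher and EXOSC9 (-0.49, adjusted p = 3.3e-10) lower.

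Among 15 tested kinases, phosphatase subunits and adaptor proteins of the YWHA family that act on phosphorylated ZFP36, 5 rose and 5 fell (median -0.02), near the 34.4% and 35.0% of all tested genes. YWHAZ rose to 897 ± 12.8 from 578 ± 4.99 CPM (SD, n = 3 each; 0.64 on the log2 scale, adjusted p = 3.4e-20), whereas YWHAE, of the same family, fell (-0.44, adjusted p = 2.7e-16). The p38 substrate kinase MAPKAPK3 rose (0.62, adjusted p = 2.6e-14). MAPKAPK2, which encodes MK2 and was chosen after its value was seen, did not pass the test (-0.02, adjusted p = 0.54).

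Of 14 tested poly(A)-binding proteins and partners of PABPC1, 3 rose, 8 fell and 3 did not pass, with a median of -0.17, against 34.4% higher and 35.0% lower over all tested genes. The 3 that rose, PABPN1 (log2 fold change 0.245), PAIP2B (0.573) and GSPT1 (0.247), were chosen after their values were seen. EIF4G1, the scaffold that joins PABPC1 to the cap complex, fell to 301 ± 6.02 from 691 ± 9.48 CPM (SD, n = 3 each; -1.20 on the log2 scale, adjusted p = 3.5e-26), and PAIP1, which binds PABPC1, fell as well (-0.38, adjusted p = 2.5e-13). EIF4A1 fell too (-0.35, adjusted p = 4.5e-14), but 7.85% of its reads were unique, and it shares 29.8% of its exon bases with another coding gene. PABPC4, a paralogue of PABPC1 chosen after its value was seen, fell (-0.21, adjusted p = 4.7e-08). Of 12 stress granule genes, the company of TIA1 and TIAL1, 2 rose and 8 fell (median -0.15), where 34.4% and 35.0% of all tested genes did. The nucleator gene G3BP1 rose to 429 ± 12.2 from 222 ± 5.48 CPM (SD, n = 3 each; 0.95 on the log2 scale, adjusted p = 8.2e-23), while FMR1, which encodes an RNA-binding translational regulator, fell (-0.66, adjusted p = 9.7e-14).

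Most of the mRNAs listed as known carriers of AU-rich elements were lower. Of 40 on the list 35 were tested; 22 fell, 6 rose and 7 did not pass, against 35.0% and 34.4% of all tested genes that fell and rose. The list's median was -0.87. In the longest 3′ UTRs scanned here, PLAUR, IER2 and ODC1, which fell, hold 0 copies of the AU-rich word ATTTA. CCL2, which fell, and EGR1, which rose, hold 1 each. These genes were picked by their ATTTA count. TNF, CXCL3, CCL20, CSF2 and CSF3 had too few reads. PLAU, the urokinase gene, had the smallest adjusted p, at 148 ± 3.04 CPM in controls against 21.6 ± 1.38 (SD, n = 3 each, log2 fold change -2.78), although 31.1% of its exon bases overlap a coding gene on the other strand. VEGFA, the vascular endothelial growth factor gene, stood at 99.4, 103 and 94.5 CPM in controls and at 14.4, 13.2 and 15.9 CPM with PERK siRNA, at 14.6% of the control mean (-2.77, adjusted p = 8.5e-26). IER3, an immediate early gene, fell as well (-1.96, adjusted p = 5.7e-27), with 26.5% of its exon bases under an antisense gene. The list holds many cytokines already known to fall in these samples, so it is no independent sign of direction.

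**Figure D4:**
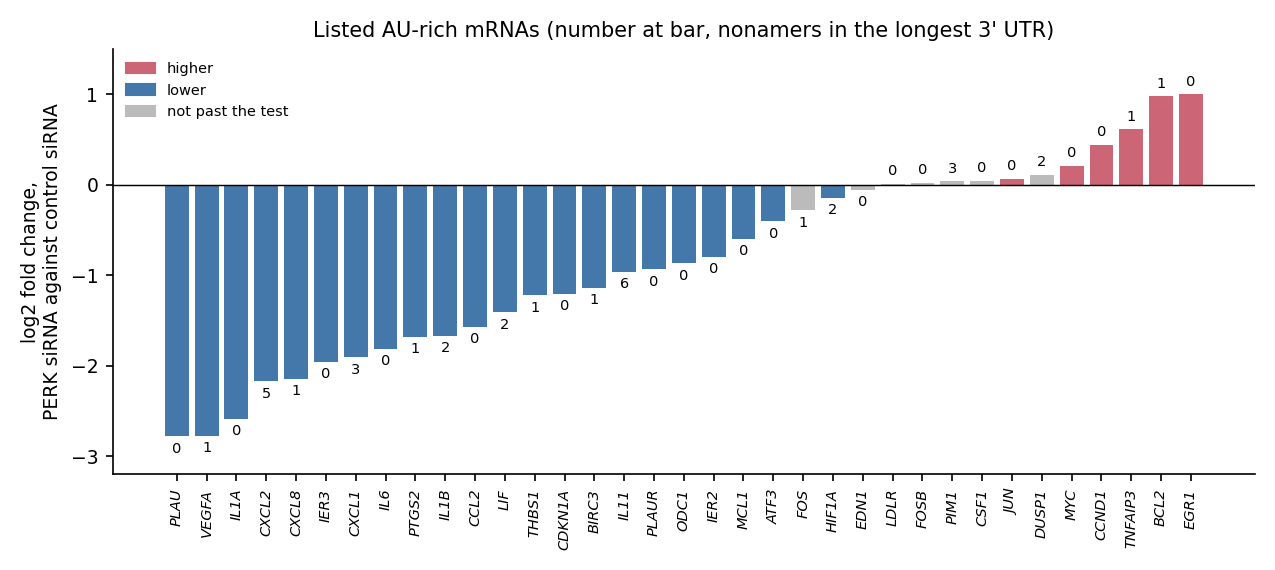
Log2 fold change, PERK siRNA against control siRNA (vertical axis), of the 35 tested mRNAs on the list, ordered by value; red rose, blue fell, grey did not pass the test, and the number at each bar counts nonamers in the longest 3′ UTR. Overlapping nonamers are each counted. Bars with and without nonamers stand at both ends, such as PLAU with 0 and VEGFA with 1 among the falls and EGR1 with 0 and BCL2 with 1 among the rises.

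The nonamer did not divide the list cleanly. Of 16 listed mRNAs with a nonamer 11 (68.8%) fell and 2 (12.5%) rose (median -1.2). Of 19 without one 11 (57.9%) fell and 4 (21.1%) rose (median -0.6). Over all tested genes 35.0% fell and 34.4% rose. Whether the 2 sets differ was not tested. Besides VEGFA, the falls with a nonamer included IL1B (-1.67), CXCL8 (-2.15), PTGS2 (-1.68) and CXCL2 (-2.17). CXCL2 holds 5 nonamers in a 3′ UTR of 721 bases, but those at positions 148, 152, 156 and 160 overlap in a single run. CXCL2 was thinly covered, at 15 to 32 reads per control sample and 1 to 10 with PERK siRNA (SE 0.46). PTGS2 had 52 to 68 reads per control sample and 16 to 20 with PERK siRNA. The rises with a nonamer were BCL2 (0.98) and TNFAIP3 (0.62). FOS, DUSP1 and PIM1, which hold 1, 2 and 3 nonamers, did not pass the test. The 3 of PIM1 overlap. Genes other than VEGFA in this paragraph were chosen after their values were seen.

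Over all tested genes the nonamer went with a larger share of falls. Of the 1216 genes with a nonamer, 41.9% fell and 31.2% rose, and the median log2 fold change was -0.059. Of the 11512 without one, 34.7% fell and 35.1% rose, and the median was 0.0092. With 1 nonamer 40.5% of 929 genes fell, with 2 nonamers 45.9% of 194, and with 3 or more 48.4% of 93. Overlapping nonamers were each counted, so a higher count need not mean more separate sites. The medians of these 3 sets, -0.046, -0.12 and -0.091, were not graded, and median 3′ UTR length rose with the count, at 2961, 3455 and 4556 bases. The difference in medians is small beside the median absolute change of 0.33 among genes with a nonamer. Genes are not replicates, so these shares describe the 2 groups of libraries and carry no test.

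Genes with a nonamer also have longer and more AT-rich 3′ UTRs, with medians of 3105 bases and 61.8% against 1288 bases and 56.9%. Tested genes were split into 4 bands of 3′ UTR length with equal gene numbers. In the shortest band the share that fell was 42.6% with a nonamer, in only 54 genes, and 33.2% without. It was 50.8% and 34.5% in the second, 45.2% and 35.0% in the third, and 38.0% and 36.5% in the longest. The gap was therefore wide in the second band and narrow in the longest, which holds 677 of the 1216 genes. The part of base composition in this was not tested.

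**Figure D5:**
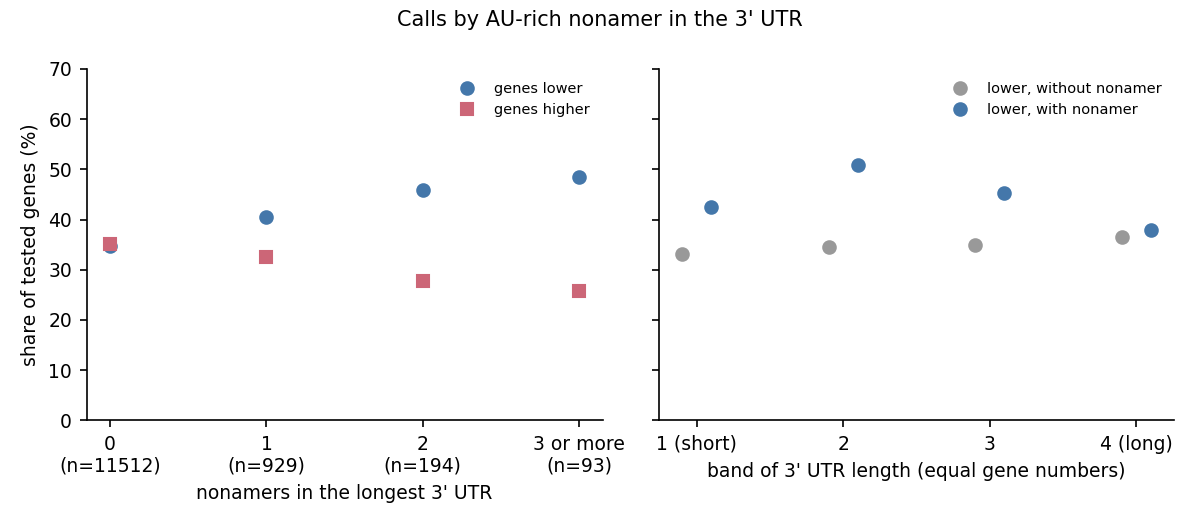
Share of tested genes called lower or higher with PERK siRNA (vertical axis, %) by the number of nonamers in the longest 3′ UTR (left), and share called lower with and without a nonamer in each band of 3′ UTR length (right). Overlapping nonamers are each counted. The share of falls is 34.7% at 0 nonamers and 48.4% at 3 or more, and the gap within bands is 38.0% against 36.5% among the longest 3′ UTRs.

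Of the genes averaging at least 3 in log2 CPM, those most like ZFP36 over the 6 samples were GATA4, SPIRE1 and TAF3, with Pearson r of 0.9993, 0.9989 and 0.9981 in log2 CPM. These points share their libraries and fall into 2 groups, and 1714 of 9985 genes reached an r of at least 0.95, so the ranking is a description only.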

How the data were processed

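The 8 genes, the gene lists and the tests were chosen with earlier results of these data known. Per the labels' protocols, RNA was column-purified and turned into libraries with a strand-keeping kit. Per the submitters' processing notes the build was hg38; which aligner, counter and annotation were used is not given in the sources used here. Per the file headers, the authors deposited counts of total and of unique exon reads for each gene, and TPM, which equals total exon reads per exon length scaled to a fixed sum.

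Total exon reads were tested with edgeR 4.0.16 in R 4.3.3 (quasi-likelihood test, TMM factors, default expression filter, robust dispersion, no covariate, Benjamini-Hochberg adjustment at 0.05) in 12973 of 16842 genes with a read. CPM carry the TMM factors. A floor of 3 reads is 0.153 to 0.167 CPM, for counting error only. Replicates differed by more than counting noise (chi-square per degree of freedom 1.65 to 2.31 within groups), so none was merged. On data simulated for this comparison over 12885 genes, the test found 33 of 50 genes altered 1.2-fold, 42 of 50 at 1.5-fold, 50 of 50 at 2-fold and 49 of 50 at 3-fold, with 10 false calls among 12686 genes. Only 50 genes per fold were altered there, whereas 69.5% of tested genes were called here, so these counts may not carry over.

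Named genes were the 8, EIF2AK3, the 3 genes with the smallest adjusted p in each of 8 lists, and the 3 most like ZFP36. One gene taken by this rule is not reported here. Gene places, exon overlaps and 3′ UTRs came from GENCODE release 29, with the longest 3′ UTR per gene; 245 tested genes had none there. Alternatives were other scaling factors or filters, DESeq2 1.42.0, limma-voom (limma 3.58.1), non-robust dispersion, a replicate block, unique reads, a 1.2-fold null, leaving out each sample, and other AU-rich words.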

Additional observations from a re-analysis of the deposited data

How the results depend on the processing

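The 6 rises and 1 fall among the 8 genes, and the missing call for ELAVL1, were the same under each of the 16 alternatives other than the 1.2-fold null. Over these, the log2 fold change of ZFP36 ran from 0.48 to 0.56, of ZFP36L1 from 0.08 to 0.12, of ZFP36L2 from 0.24 to 0.28, of KHSRP and of PABPC1 from 0.37 to 0.40, of TIA1 from 0.18 to 0.21 and of TIAL1 from -0.17 to -0.12. The highest adjusted p among the called genes was 0.015, for ZFP36L1 without control sample 1, and the adjusted p of ELAVL1 ran from 0.16 to 0.80. Against a null of a 1.2-fold change, 3 of the 8 were higher and 0 lower, and over all genes 2345 were higher and 2344 lower, by construction fewer. The median log2 fold change of all genes ran from -0.00712 to 0.0193 over the scaling factors. Leaving out each sample gave 4198 to 4294 genes higher and 4334 to 4427 lower. With the replicate number as a block 4460 genes were higher and 4543 lower, and the block changed no call among the 8. Deviations of same-numbered samples from their group means correlated with r of -0.0323 to 0.0106, not every sample was closest to its own number, and the numbers were not taken as pairs. The 1.2-fold null moved 13 of the 16 list counts by more than 1.5 times. The share of genes that fell was 41.2% with the heptamer TATTTAT, 41.4% with the nonamer sought in all transcripts, and 38.5% with at least 3 copies of ATTTA, which 47.9% of genes have. Paralogue shares from unique reads moved by less than the spread between samples. Depth limits ZFP36 most, at 111 to 175 reads per sample.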
